A study of Mus musculus with 12 samples.

Results

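The guanylate-binding proteins (GBPs) and the immunity-related GTPases (IRGs) were followed in activated mouse CD8+ T cells. The 10 genes described are Gbp2, Gbp3, Gbp4, Gbp5, Gbp6, Gbp7, Irgm1, Irgm2, Igtp and Ifi47, which are 6 GBP and 4 IRG genes among the 55487 gene identifiers of each count table. They were chosen by name, because Gbp2 was higher in the KD samples while most interferon-induced genes were lower there. The contrast of KD with WT therefore chose the group, and its values are given below as a description, with no p-value. Where calls from the fit over all genes are counted in that contrast, they only sort the values and support nothing about the group. The contrast of Male with Female was not used for the choice and was tested.

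All 12 samples were OT-1 CD8+ T cells, which carry a transgenic T cell receptor for an ovalbumin peptide, so that nearly all cells share 1 specificity. The 3 Female and 3 Male samples were splenic cells of either sex, stimulated for 3 days with beads coated with anti-CD3 and anti-CD28 and with recombinant mouse IL2. The 3 WT and 3 KD samples came from another batch of male cells that were electroporated and then cultured for 3 days. KD cells received Cas9 together with a guide RNA against Kdm5d, a Y-linked histone demethylase, and WT cells received the guide RNA without Cas9. No sample received Cas9 without that guide, so Cas9 itself and the loss of Kdm5d cannot be told apart. The age of the mice and the number of mice behind each group are not given in the sources used here, so p-values measure the spread between these samples, which may be technical.

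GBPs are large GTPases that interferon gamma and type I interferon induce in most nucleated cells. They assemble on the vacuoles of intracellular parasites and on bacteria in the cytosol, where they help to break membranes and to start inflammasome signalling. The IRGs are smaller GTPases of the same defence. Irgm1, Irgm2 and Igtp (also called Irgm3) are the regulatory IRGM proteins, which sit on the cell's own membranes and keep effector IRGs inactive there, while Ifi47 (also called Irgd) and Iigp1 belong to the effector class that coats parasite vacuoles. Interferon gamma acts on genes through gamma-activated sites and induces the factor IRF1, and type I interferon acts through a complex that includes STAT2 and IRF9 and binds interferon-stimulated response elements.

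The promoters are shown because they hold the letters that these factors recognise and because neighbouring genes of the families had different values. Windows of 300 bases, from 250 bases before to 50 bases after the RefSeq start, were at hand for 8 of the 10 genes, not for Gbp4 and Gbp6. They were searched on both strands for the core of the interferon-stimulated response element, which reads GAAA, any 2 bases and GAAA again, and for the gamma-activated site, TTCNNNGAA. The 6 windows printed here are from RefSeq (build GRCm38.p6), written 5′ to 3′ on the gene's strand, and capitals mark every match of either motif. The Gbp2 window lies at chr3:142620413-142620712 (+), Gbp5 at chr3:142496684-142496983 (+), Gbp7 at chr3:142530086-142530385 (+), Irgm1 at chr11:48871371-48871670 (-), Irgm2 at chr11:58214727-58215026 (+) and Igtp at chr11:58199306-58199605 (+).
Gbp2: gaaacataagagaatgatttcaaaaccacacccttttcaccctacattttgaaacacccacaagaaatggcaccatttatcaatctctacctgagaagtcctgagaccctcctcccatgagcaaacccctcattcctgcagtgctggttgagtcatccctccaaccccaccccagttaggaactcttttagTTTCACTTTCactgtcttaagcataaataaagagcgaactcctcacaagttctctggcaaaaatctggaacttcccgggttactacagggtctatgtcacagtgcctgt
Gbp5: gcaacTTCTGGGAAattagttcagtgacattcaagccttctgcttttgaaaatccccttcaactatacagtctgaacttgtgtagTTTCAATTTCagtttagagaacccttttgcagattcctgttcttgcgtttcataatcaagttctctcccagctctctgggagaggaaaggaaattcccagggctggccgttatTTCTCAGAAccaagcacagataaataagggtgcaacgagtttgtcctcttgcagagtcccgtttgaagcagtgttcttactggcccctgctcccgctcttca
Gbp7: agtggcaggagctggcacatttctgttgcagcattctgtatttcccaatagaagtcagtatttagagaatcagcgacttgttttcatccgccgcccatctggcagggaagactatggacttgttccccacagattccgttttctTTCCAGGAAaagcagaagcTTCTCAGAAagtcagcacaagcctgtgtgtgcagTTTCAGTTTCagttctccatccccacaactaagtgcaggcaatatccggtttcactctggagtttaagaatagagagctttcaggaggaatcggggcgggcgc
Irgm1: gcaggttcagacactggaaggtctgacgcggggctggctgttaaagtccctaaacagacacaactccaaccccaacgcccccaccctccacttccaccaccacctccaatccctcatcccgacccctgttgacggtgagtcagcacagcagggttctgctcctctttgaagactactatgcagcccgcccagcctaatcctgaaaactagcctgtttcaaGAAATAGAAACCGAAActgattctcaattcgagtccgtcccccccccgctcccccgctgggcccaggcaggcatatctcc
Irgm2: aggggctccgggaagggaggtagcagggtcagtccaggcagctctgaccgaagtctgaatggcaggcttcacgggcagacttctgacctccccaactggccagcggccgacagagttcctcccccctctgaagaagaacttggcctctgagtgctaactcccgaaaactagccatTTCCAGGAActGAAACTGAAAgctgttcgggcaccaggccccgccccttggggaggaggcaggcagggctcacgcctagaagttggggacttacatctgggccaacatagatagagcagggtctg
Igtp: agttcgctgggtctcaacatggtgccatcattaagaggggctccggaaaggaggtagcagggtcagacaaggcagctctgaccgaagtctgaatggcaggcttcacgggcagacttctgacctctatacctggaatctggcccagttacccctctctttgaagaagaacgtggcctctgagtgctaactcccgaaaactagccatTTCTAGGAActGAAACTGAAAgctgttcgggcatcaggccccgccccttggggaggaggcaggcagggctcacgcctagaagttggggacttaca

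The RefSeq start is not always the first base of the GENCODE gene, and it lies farthest inside the gene body for Irgm2 and Gbp5. Of the 8 genes with a window, 7 held the response element core, against 1079 of all 27025 genes with a window. Counted by window it was 7 of 9, as another window of Gbp3 lacked it, against 3.44% of all 32851 promoter windows of that length. Ifi47 held neither motif in its window, which says only that these letters are not there. TTCNNNGAA was in the windows of 4 of the 8 genes, namely Gbp5, Gbp7, Irgm2 and Igtp, against 2582 of all 27025 genes. By window it was 4 of 9, against 8.3% of all windows. The match to the response element core began 59 bases before the start in Gbp2, 165 in Gbp5, 53 in Gbp7, 64 in Irgm2 and 34 in Igtp. Irgm1 had 2 matches that overlapped each other, at 30 and 24 bases before the start, and Gbp3 likewise at 45 and 39 bases. No match of one motif overlapped a match of the other. The windows of Igtp and Irgm2 were 68.1% identical over 270 bases at an offset of 30, whereas every other pair of windows of the 8 genes reached 31.9% to 37.9%. Gbp2, Gbp5 and Gbp7, whose values below differ in direction, all held the response element core, and Gbp5 and Gbp7 but not Gbp2 held TTCNNNGAA. Whether any of these motifs bears on the values was not tested.

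Total counts per sample ranged from 78748647 to 110803318. Levels are given as CPM, counts scaled to library size with TMM factors, and each table of 6 samples was scaled on its own, so that no test was made across the tables. Kdm5d, the targeted gene, read 48.4, 51.9 and 52.4 CPM in WT and 21.4, 21.8 and 22.9 CPM in KD, so KD held 43.3% of the WT level (exact two-sided permutation test p = 0.1, the smallest that 3 against 3 samples allow). Male samples of the other table read 49.5, 50.9 and 52.2 CPM, and Female samples held 0, 2 and 0 counts of it. The 8 CD8 T cell markers summed to 2337 to 2367 CPM in Female, 2327 to 2362 in Male, 2733 to 2791 in WT and 2429 to 2494 in KD. The 8 macrophage and monocyte markers summed to 2.35 to 3.06 CPM in Female, 4.04 to 4.07 in Male, 6.71 to 8.18 in WT and 5.9 to 7.18 in KD, with 3, 4, 2 and 2 of them at 0 in the same order and Ms4a7 at 0 in every group. The 6 dendritic cell markers summed to at most 6.41 CPM in any sample, with Siglech and Cd209a at 0, and the B cell, natural killer cell, CD4 T cell and neutrophil lists to at most 6.49 CPM.

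Every member was transcribed in every sample. The 10 genes together took 1333 to 1344 CPM in Female, 1858 to 1871 in Male, 2363 to 2396 in WT and 2655 to 2669 in KD. The ranges of Female and Male did not overlap, nor did those of WT and KD. Of all single genes tested, 58.3% were separated between Female and Male and 46.8% between WT and KD. The sum in KD includes Gbp2, whose rise chose the group, and hides members that were lower there, such as Gbp4. Ranges of different tables were not compared, since the batch and the scaling differ. In bulk RNA, a change in how many cells express a gene and a change in RNA per cell cannot be told apart.

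**Figure D1:**
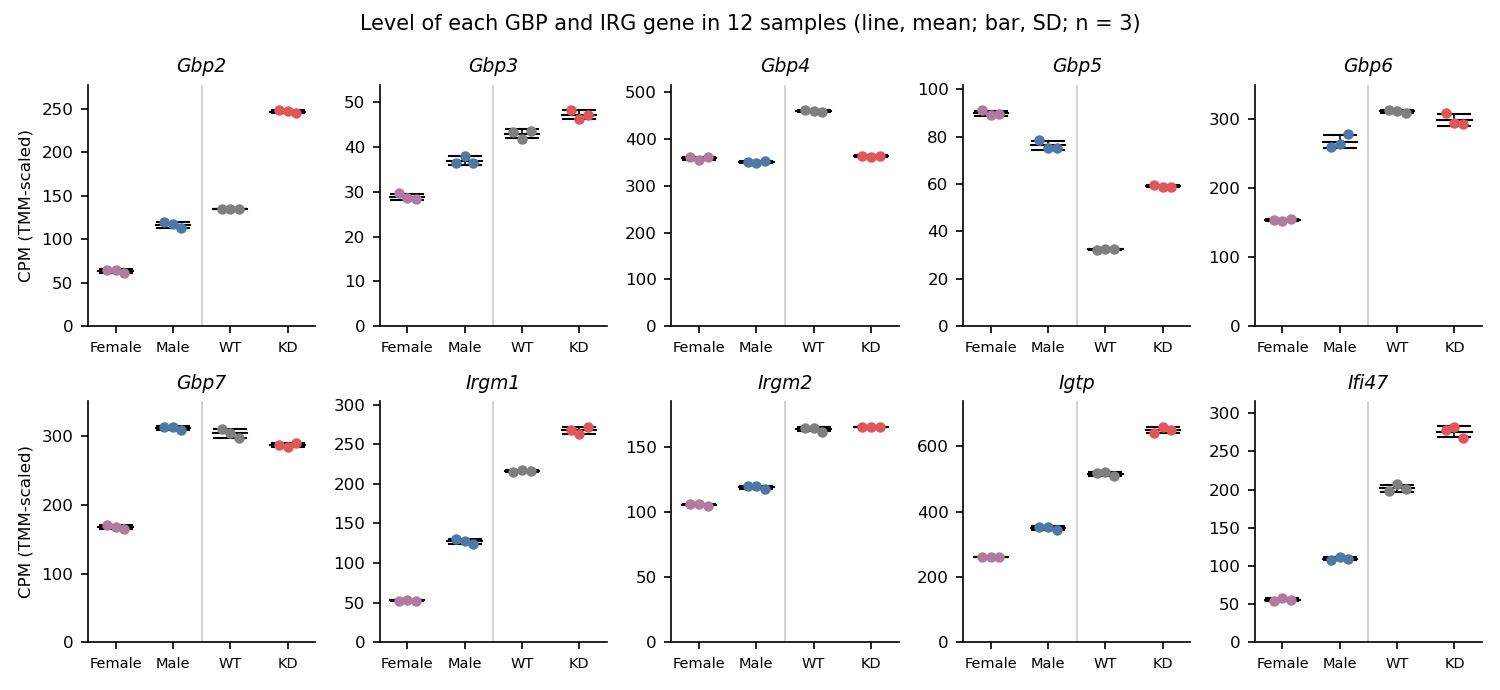
Level of each of the 10 genes in every sample, in CPM on an axis from 0 that differs between panels; each point is 1 sample, the middle line the mean and the whiskers the SD of 3. Gbp2 and Irgm1 step up from Female to Male and from WT to KD, Gbp5 steps down and then up, and Irgm2 is nearly level between WT and KD.

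Per kilobase of exon, a scale for comparing genes, Igtp was the highest of the 10 in all 4 groups, at 129 ± 0.655 CPM per kb in Female, 173 ± 3.13 in Male, 255 ± 3.12 in WT and 322 ± 4.32 in KD (SD, n = 3). The length counts every annotated exon, whether these cells use it or not. Overlap of samples, given below, measures neither that error nor reads shared by similar genes, so close ranks are uncertain. The lowest was Gbp3 in Female and Male, at 8.84 ± 0.218 and 11.3 ± 0.290 CPM per kb, and Gbp5 in WT and KD, at 4.89 ± 0.0215 and 8.91 ± 0.0691. In Female the order from the top was Igtp, Gbp4, Gbp7, Irgm2, Gbp6, Gbp2, Ifi47, Gbp5, Irgm1 and Gbp3, and among neighbours only Irgm1 and Gbp3 overlapped in their sample values. In Male it was Igtp, Gbp7, Gbp4, Gbp2, Gbp6, Ifi47, Irgm2, Irgm1, Gbp5 and Gbp3, with overlap between neighbours from Gbp4 to Ifi47 and between Gbp5 and Gbp3.

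In WT the order was Igtp, Ifi47, Gbp4, Gbp7, Gbp2, Gbp6, Irgm2, Irgm1, Gbp3 and Gbp5, and only Gbp7 and Gbp2 overlapped as neighbours. In KD it was Igtp, Ifi47, Gbp2, Gbp7, Gbp6, Gbp4, Irgm1, Irgm2, Gbp3 and Gbp5, with overlap only between Gbp7 and Gbp6. Gbp2 was the fifth from the top at 53.6 ± 0.151 CPM per kb in WT and the third at 98.2 ± 0.679 in KD. Gbp4 moved the other way, from 61.4 ± 0.201 to 48.5 ± 0.274 CPM per kb.

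Male cells had higher levels than Female cells of 8 of the 10 genes, and a lower level of Gbp5. Across all 20208 genes tested, 23.5% passed the same threshold upward, 26.3% downward and 49.8% in either direction (edgeR's quasi-likelihood test, Benjamini-Hochberg adjusted p under 0.05). Among the 5904 genes at least as abundant as the lowest member, 38.1% were higher and 42% lower. The median log2 fold change of the 10 genes was 0.61, against 0.011 over all genes tested. Counted by samples, 8 genes had every Male sample above every Female sample (28.6% of all genes) and 2 had every Male sample below (29.7%), 58.3% of all genes being separated in either direction. The sum of the macrophage and monocyte markers given above was also higher in Male, at 4.07 CPM or less. Of the 3 markers abundant enough to be tested, Cd68 and Mpeg1 were called higher and Csf1r was not called. Among the others, Itgam read 0 CPM in Male and 0.15 in Female. The CD4 T cell list also summed higher in every Male sample and the dendritic cell list lower, while the sums of the remaining lists overlapped. The part of these markers in the result was not tested.

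The prenylated GBPs, which carry a lipid anchor at their C-terminal end, differed in direction. Gbp2 read 64.2, 64.4 and 60.7 CPM in Female and 119.5, 117 and 113 CPM in Male, 1.85 times as high (log2 fold change 0.89, SE 0.033, edgeR adjusted p = 7.64e-09). Every Male sample was above every Female sample. Gbp5, known for promoting NLRP3 inflammasome assembly in macrophages, read 91.1, 89.1 and 89.6 CPM in Female and 78.5, 75.3 and 75.3 CPM in Male (log2 fold change -0.24, SE 0.026, edgeR adjusted p = 2.84e-05). For Gbp5 every Male sample was below every Female sample.

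Gbp7 lies between Gbp5 and Gbp3 in the chromosome 3 cluster. It read 170.5, 168 and 165 CPM in Female and 313, 314 and 308 CPM in Male (log2 fold change 0.89, SE 0.021, edgeR adjusted p = 3.67e-10). Gbp6, of the chromosome 5 cluster, read 154, 153 and 156 CPM in Female and 259.9, 263.5 and 278 CPM in Male (log2 fold change 0.80, SE 0.028, edgeR adjusted p = 5.23e-09). Both genes were higher in all 3 Male samples. Gbp6 shares 74.2% of its 31-base stretches with other annotated genes, most with Gm43302, so its count is uncertain. Gbp7 shares 14.7%, most with Gm43802, whose exons overlap its own by 637 bases on the same strand, so reads could be split there too.

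Gbp3 was higher by a smaller amount, with 29.7, 28.7 and 28.3 CPM in Female and 36.5, 38.1 and 36.3 CPM in Male (log2 fold change 0.36, SE 0.038, edgeR adjusted p = 1.87e-05). Gbp4, the most abundant GBP member in Female cells per kilobase, was the one gene of the 10 that did not pass, with 361, 355.5 and 361 CPM in Female and 352, 348 and 353 CPM in Male (log2 fold change -0.03, SE 0.018, edgeR adjusted p = 0.16). Its 2 groups did not overlap, with every Male sample below Female.

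Among the IRGs, the regulatory Irgm1, needed for resistance to mycobacteria and for survival of T cells exposed to interferon gamma, had the largest fold change of the 10 genes. It read 52.1, 53.9 and 52.6 CPM in Female and 130.0, 128 and 124 CPM in Male, 2.41 times as high (log2 fold change 1.27, SE 0.027, edgeR adjusted p = 2.01e-10). Every Male sample was above every Female sample. Ifi47, the effector-class gene, read 54.7, 58.2 and 55.1 CPM in Female and 108, 112 and 109 CPM in Male (log2 fold change 0.97, SE 0.031, edgeR adjusted p = 2.72e-09).

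Igtp, needed for control of Toxoplasma in mice, read 261, 263 and 260.3 CPM in Female and 354, 354 and 343 CPM in Male (log2 fold change 0.42, SE 0.020, edgeR adjusted p = 4.83e-08). Irgm2, whose annotated exons overlap those of Igtp on the same strand by 162 bases, read 106, 106 and 105 CPM in Female and 119.5, 119.7 and 118 CPM in Male (log2 fold change 0.17, SE 0.022, edgeR adjusted p = 7.62e-05). Samples of the 2 groups did not overlap for any of these 4 IRG genes. Igtp shares 15.9% of its 31-base stretches with Irgm2, so reads could be split between them.

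In KD against WT, a description only because this contrast chose the group, 6 of the 10 genes passed the same threshold upward and 2 downward. Over all 20413 genes tested, 16.8% passed upward, 18.4% downward and 35.1% in either direction, and the median log2 fold change was 0.22 for the 10 genes and 0.012 for all. Among the 4737 genes at least as abundant as the lowest member, 25.5% were called higher and 40.1% lower. Counted by samples, 7 of the 10 genes had every KD sample above every WT sample (23.2% of all genes) and 2 had every KD sample below (23.6%), 46.8% of all genes being separated in either direction. The sum of the CD8 T cell markers was lower in every KD sample than in WT. The same held for the dendritic cell, B cell, natural killer cell, CD4 T cell and neutrophil lists. The dendritic cell list, for example, summed to 4.13 to 4.93 CPM in KD and 6.25 to 6.41 in WT. Only the sums of the macrophage and monocyte markers overlapped. Their part in the differences was not tested.

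Gbp2 read 134.4, 134.7 and 135 CPM in WT and 248.5, 248 and 245 CPM in KD, 1.83 times as high (log2 fold change 0.88, SE 0.020). Gbp5 read 32.3, 32.6 and 32.4 CPM in WT and 59.6, 58.9 and 58.8 CPM in KD, 1.82 times as high (log2 fold change 0.87, SE 0.032). These prenylated GBPs had the largest fold changes of the 10, close to each other in size, and every KD sample was above every WT sample. They had opposite directions in Male against Female.

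The other GBPs stood at or below their WT level, apart from Gbp3. Gbp3 read 43.4, 41.8 and 43.7 CPM in WT and 48.2, 46.3 and 47.2 CPM in KD (log2 fold change 0.14, SE 0.035). Gbp4 read 462, 461 and 459 CPM in WT and 364.5, 361 and 364 CPM in KD, 0.789 times the WT level (log2 fold change -0.34, SE 0.016). For both genes the groups did not overlap, Gbp3 with every KD sample above WT and Gbp4 with every KD sample below.

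Gbp7 read 311, 305 and 297.5 CPM in WT and 287, 285 and 290.1 CPM in KD (log2 fold change -0.08, SE 0.021). It passed the threshold downward, but not when WT replicate 1, its highest sample, was left out (log2 fold change -0.07), which lowered the count of members called lower from 2 to 1, or with upper-quartile scaling (-0.05). Gbp6 read 313, 312 and 309 CPM in WT and 309, 295 and 293 CPM in KD (log2 fold change -0.06, SE 0.023) and did not pass. KD replicate 1 reached the lowest WT sample, and without it Gbp6 passed downward (log2 fold change -0.08), which raised that count to 3. It also passed with DESeq2 and limma-voom (both -0.06) and with the counts of Gm43302 added (-0.12).

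Of the IRGs, Ifi47 read 198, 207 and 200.3 CPM in WT and 277, 282 and 267.5 CPM in KD (log2 fold change 0.45, SE 0.026). Igtp read 519, 521 and 509 CPM in WT and 642.5, 659.9 and 651.5 CPM in KD (log2 fold change 0.33, SE 0.018). Irgm1 read 215, 217 and 216 CPM in WT and 267, 263 and 272 CPM in KD (log2 fold change 0.31, SE 0.020). In all of these genes every KD sample was above every WT sample. Irgm2 read 164.2, 164.4 and 161.6 CPM in WT and 164.8, 165.1 and 165.2 CPM in KD (log2 fold change 0.01, SE 0.021) and did not pass. The lowest KD sample was just above the highest WT sample for Irgm2.

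Set side by side, the comparisons share no sample. The share of all genes called in both was not counted, and the calls in KD only sort the values. The joint counts below therefore support nothing about the group. Gbp2, Gbp3, Irgm1, Igtp and Ifi47, 5 of the 10 genes, were higher both in Male than in Female and in KD than in WT. Gbp6 and Irgm2 were higher in Male and did not pass in KD, and Gbp7 passed upward in Male and downward in KD. Gbp4 did not pass between the sexes and was lower in KD, and Gbp5 was lower in Male and higher in KD.

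**Figure D2:**
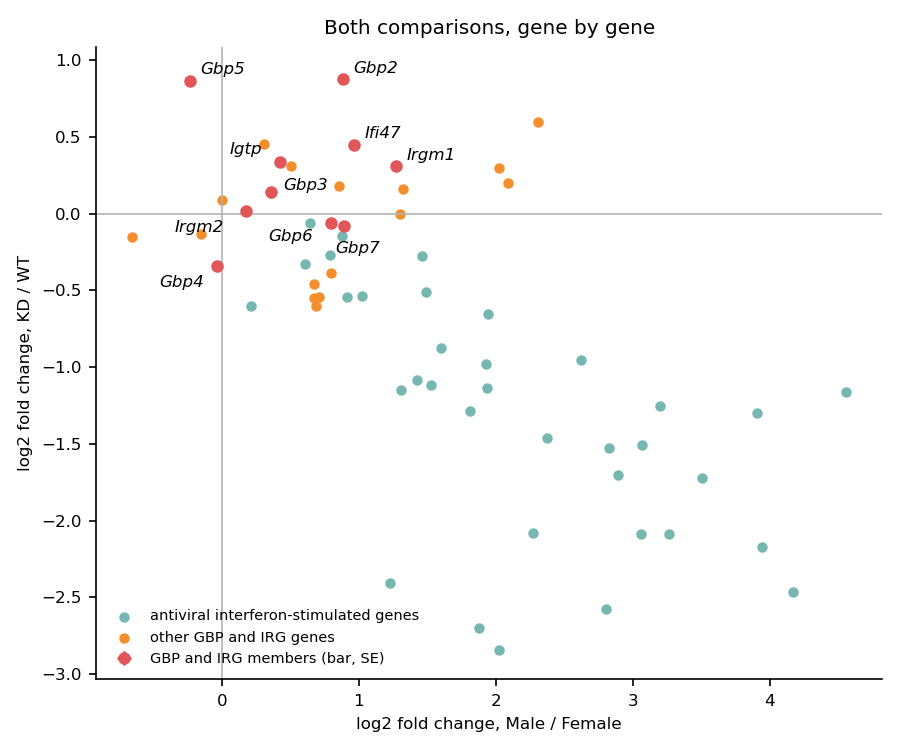
Log2 fold change of Male over Female (horizontal) and of KD over WT (vertical), 1 point per gene, with the SE as bars on the 10 members. The 35 antiviral genes all lie to the right of and below 0. Gbp6 and Gbp7, just below it, and other genes of the families such as Gbp9 and Gvin1 lie there too. Gbp2, Gbp3, Irgm1, Igtp and Ifi47 lie to the right of and above 0.

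The 10 genes lie on 3 chromosomes of the GRCm38 genome and are all annotated as protein coding. Gbp5 (chr3:142493978-142522344), Gbp7 (chr3:142530342-142550149), Gbp3 (chr3:142560026-142573209) and Gbp2 (chr3:142620602-142638008) follow each other on the plus strand of chromosome 3. Gbp4 (chr5:105115767-105139586) and Gbp6 (chr5:105270702-105293698) are on the minus strand of chromosome 5. On chromosome 11, Irgm1 (chr11:48861968-48871683) is on the minus strand, and Ifi47 (chr11:49076587-49096974), Igtp (chr11:58199556-58207591) and Irgm2 (chr11:58199618-58222782) are on the plus strand. Igtp and Irgm2 lie next to each other and far from Irgm1 and Ifi47.

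Neighbours on chromosomes 3 and 11 differed in their values. On chromosome 3, Gbp5 and Gbp2 at the ends of the cluster had KD to WT log2 fold changes of 0.87 and 0.88, while Gbp7 and Gbp3 between them had -0.08 and 0.14. In Male against Female it was Gbp5 that differed in sign from Gbp7, Gbp3 and Gbp2. On chromosome 5, Gbp4 and Gbp6 were at -0.34 and -0.06 in KD against WT. The other tested genes of that cluster were Gbp9 at -0.39 and Gbp8 at -0.13, both called lower, and Gbp10 at -0.001 and Gbp11 at 0.09, neither called. Gbp10 shares 89.8% of its 31-base stretches with other genes, most with Gbp6, so these 2 counts may not be independent. Gbp8 and Gbp11 share 31.1% and 34.3%, and their counts are uncertain as well. Igtp and Irgm2, with similar promoter windows and overlapping exons, had log2 fold changes of 0.33 and 0.01 in KD against WT and of 0.42 and 0.17 in Male against Female.

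**Figure D3:**
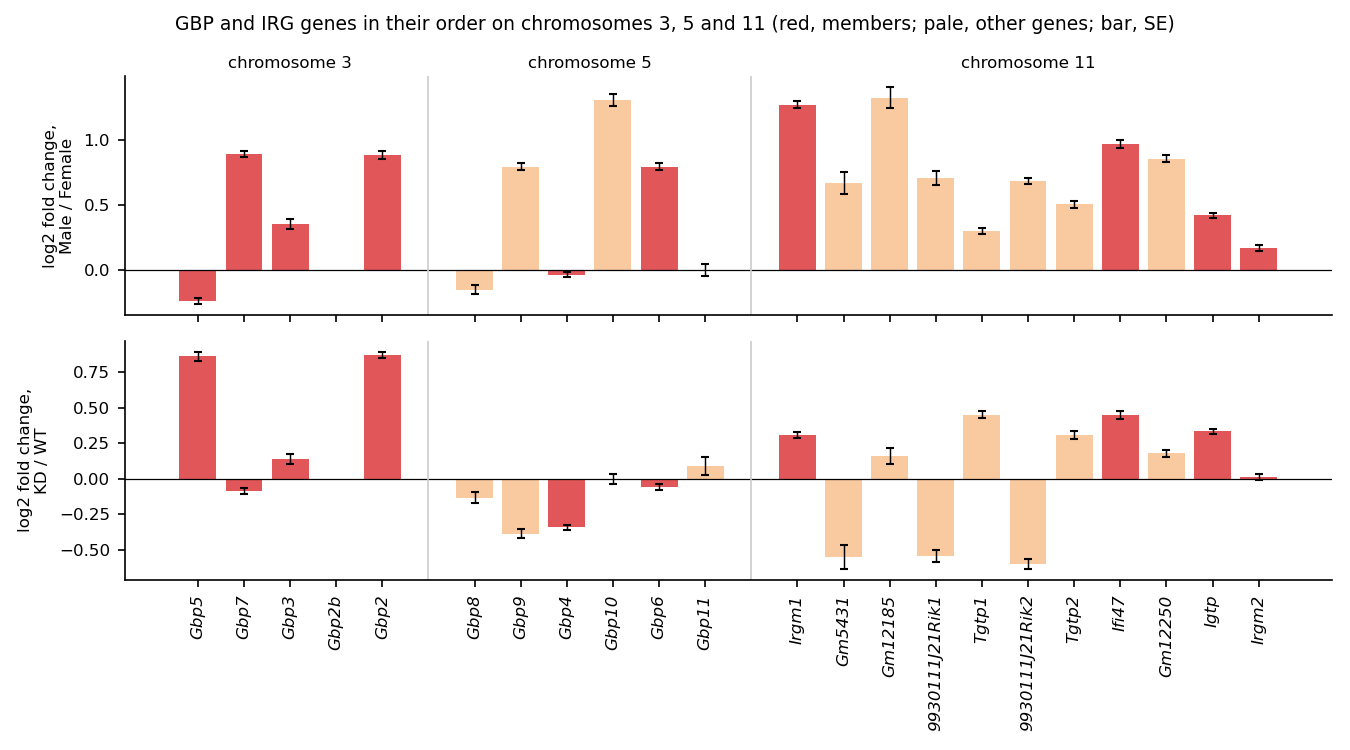
Log2 fold change with its SE for GBP and IRG genes in their order on chromosomes 3, 5 and 11, Male over Female in the upper panel and KD over WT in the lower. Red bars are the 10 members and pale bars the other genes; Gbp2b was not tested and has no bar, and the neighbours Gbp5 and Gbp7 differ in sign in both panels.

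The other genes of the families were divided as well. Of 18 listed, 17 were tested in Male against Female, where 13 rose, 2 fell and 2 did not pass, with a median log2 fold change of 0.69. The shares over all genes tested were 23.5% upward and 26.3% downward. Iigp1, the effector IRG that coats Toxoplasma vacuoles, went from 22.1 ± 0.771 CPM in Female to 110.0 ± 1.23 in Male (SD, n = 3), with an edgeR adjusted p of 1.11e-11 for the log2 fold change of 2.31 (SE 0.032). Gbp9 (0.80) and Gvin1 (0.67), a very large interferon-inducible GTPase, also rose, and Irgq (-0.65) and Gbp8 (-0.15) fell.

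In KD against WT, 16 of these genes were tested, 5 were called higher and 7 lower, and the median log2 fold change was 0.045. Over all genes tested, 16.8% were called higher and 18.4% lower. Those called higher were Iigp1 (0.60), Tgtp1 (0.45), Tgtp2 (0.31), Gm4951 (0.30) and Gm12250 (0.18), and all 5 had also risen in Male. Iigp1 went from 189 ± 5.96 CPM in WT to 286 ± 8.66 in KD. Those called lower included Gvin1 (-0.46) and the IRG genes 9930111J21Rik2 (-0.60) and 9930111J21Rik1 (-0.54), so that IRG genes were called in both directions. Tgtp1, Tgtp2, Gvin1 and both 9930111J21Rik genes share 69.5% to 99.7% of their 31-base stretches with other genes, and their counts are uncertain.

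The genes that carry the interferon signal to the GBPs and IRGs did not move as 1 group. Of 22 tested ligands, receptors and signalling genes, 8 rose and 12 fell in Male, with a median log2 fold change of -0.095, and 4 were called higher and 13 lower in KD, with a median of -0.17.

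Stat2, which serves type I interferon, rose from 60.4 ± 2.93 CPM in Female to 145 ± 1.86 in Male (log2 fold change 1.26) and was lower in KD, at 71.6 ± 0.613 against 102 ± 1.71 CPM (-0.50). Usp18, a feedback inhibitor of the type I interferon receptor, had log2 fold changes of 3.33 and -1.63 in the same order. Irf1, the factor that drives many GBP genes after interferon gamma, had the opposite pattern, with 146 ± 4.17 CPM in Female, 124 ± 3.03 in Male, 188 ± 3.63 in WT and 219 ± 3.5 in KD. Its log2 fold changes were -0.23 (SE 0.029, edgeR adjusted p = 6.23e-05) and 0.22 (SE 0.023).

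Ifnar1 (-0.50), Socs3 (-0.42) and Jak2 (-0.40) fell in Male with the smallest p-values. Genes called higher in KD included Irf1 (0.22), Pias1 (0.13) and Irf2 (0.11), a repressor that binds the same element as IRF1. Ifngr1, the ligand-binding chain of the interferon gamma receptor, was lower in KD, at 299.5 ± 3.13 against 467 ± 6.85 CPM in WT (log2 fold change -0.64). Ifng itself was scarce, at 0.399 ± 0.134 CPM in Female, 2.22 ± 0.382 in Male, 6.55 ± 0.4 in WT and 4.86 ± 0.199 in KD.

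Other genes known to respond to interferon gamma and IRF1 were mostly higher in Male, where 15 of 21 tested rose and 1 fell (median log2 fold change 0.41). Over all genes tested, 23.5% rose and 26.3% fell. The smallest p-values were those of Ly6a (1.99), Ly6c2 (2.19) and Psme1 (1.23), a proteasome activator subunit, and the one that fell was Tapbpl (-0.12). In KD against WT, 7 were called higher, 7 lower and 7 in neither direction, with a median of 0.014, where 16.8% of all genes were higher and 18.4% lower. Psmb8 (0.16) and Tap2 (0.17), of antigen processing, and Serpina3f (0.62) were higher, and Nlrc5 (-0.14), the activator of class I antigen presentation genes, Ly6c2 (-0.19) and Gch1 (-0.64) were lower.

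The 35 listed antiviral genes, the best-known targets of type I interferon, were all higher in Male and all lower in KD, with median log2 fold changes of 1.93 and -1.16. Over all genes tested, 23.5% were called higher in Male and 18.4% lower in KD. Their values ran from 0.21 to 4.56 in Male against Female and from -2.85 to -0.06 in KD against WT. Mx1, a GTPase that blocks viruses, stood at 3.91 and Irf7 at 2.38 between the sexes, while Irf7 was at -1.47, Oas3 at -0.98 and Rnf213 at -1.13 in KD. Of the 10 GBP and IRG members, only Gbp7 passed in these same directions. That most interferon-induced genes were lower in KD was part of the choice of the members, and this list was drawn up with earlier results known. Its contrast with the members is therefore a description. The response element core was in the windows of 13 of the 26 antiviral genes that had one, against 7 of 8 member genes.

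**Figure D4:**
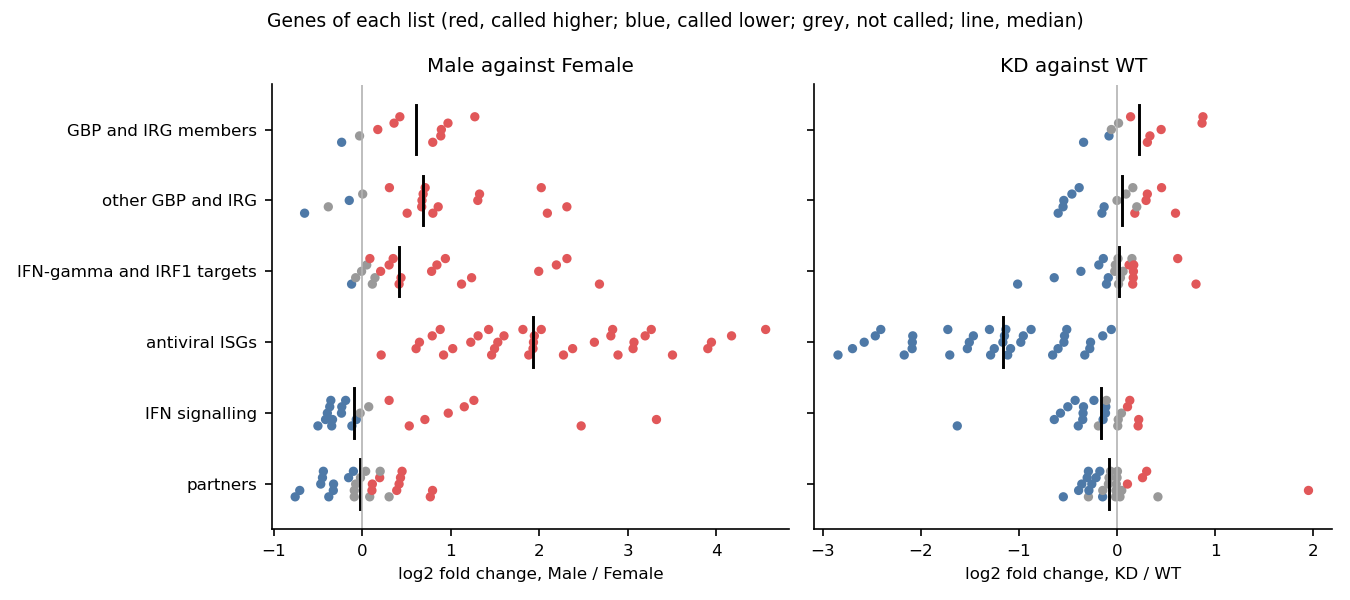
Log2 fold changes of single genes in each list, 1 point per gene, for Male over Female (left panel) and KD over WT (right panel); red genes were called higher, blue lower and grey not called, and the line is the median. The antiviral genes lie right of 0 in the first panel and left of 0 in the second, and the 10 members, with medians of 0.61 and 0.22, lie on both sides of 0 in each.

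Partners of the GBP and IRG proteins at vacuoles and in inflammasomes were called in both directions, as were genes at large. Of 27 tested, 9 rose and 10 fell in Male (median log2 fold change -0.022), and 4 were called higher and 10 lower in KD (median -0.082). Among all genes tested, 23.5% rose and 26.3% fell in Male, and 16.8% were called higher and 18.4% lower in KD. Trim21 (0.77), a ubiquitin ligase, and Pycard (0.41), the inflammasome adaptor ASC, rose in Male, while Rabgap1l (-0.76), Atg12 (-0.71), part of the conjugation machinery that guides GBPs and IRGs to vacuoles, and Pggt1b (-0.47), a subunit of a prenylating enzyme, fell.

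In KD the partners called higher were Nlrp3 (1.95), Fntb (0.30), the farnesyltransferase subunit, Gsdmd (0.26), the pore former of pyroptosis, and Gabarapl1 (0.11). Nlrp3 was scarce, at 1.39 ± 0.0383 CPM in WT and 5.37 ± 0.881 in KD. Sqstm1 (-0.29) and Map1lc3b (-0.29) were lower.

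The genes whose pattern over the 12 samples lay nearest to that of Gbp2 came from outside the families. Nearness was the root mean square difference of log2 CPM, each gene centred on its mean within each table, over 11874 genes. The 5 nearest were Mthfd1 (0.0839), Nefh (0.0954), Fam162a (0.112), Utp20 (0.113) and Egln3 (0.123). Their log2 fold changes in KD against WT ran from 0.61 for Utp20 to 0.94 for Egln3, and in Male against Female from 0.57 for Egln3 to 1.02 for Nefh. These values follow from the ranking, which used the same 12 samples, including the KD and WT samples that chose the group. None of the 5 nearest genes of any member was another member. With 11874 genes compared, that cannot tell whether the members resembled each other. Among pairs of members the difference ran from 0.051 for Gbp6 and Gbp7 to 0.568 for Gbp5 and Irgm1. The member nearest to Gbp2 was Ifi47, at 0.157.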

How the data were processed

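The deposited files were 2 tables of raw counts per gene identifier made by the authors, with 6 samples each. The submitters' processing notes name bcl2fastq 2.20.0, HISAT2, StringTie, DESeq2 and the build mm10. The labels' protocols describe total RNA with ribosomal RNA depletion in a stranded kit. The annotation and strand setting are not given in the sources used here. Of 55487 identifiers, 55227 were matched to GENCODE M21 for symbols, exon lengths and positions.

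Each table was fitted on its own with edgeR 4.0.16 in R 4.3.3 (TMM scaling, filterByExpr, quasi-likelihood test, Benjamini-Hochberg adjustment over all genes tested, threshold 0.05). The SE of a log2 fold change was taken from its size and its F value. The scripts were tested on simulated data. Members and gene lists were chosen with earlier results of these data known. Named genes were all members, Kdm5d, the 3 called genes of smallest p in each list and direction (all where 5 or fewer were called), and the 5 nearest to Gbp2. Ifng, and Gbp8, Gbp9, Gbp10 and Gbp11 in KD against WT, were named outside that rule, after their values were seen. Some genes that the rule names are not reported here. Replicate numbers did not pair the samples. Alternatives were DESeq2 1.42.0, limma 3.58.1, other scaling and filters, counts divided by 4, all 12 samples in 1 fit, a replicate block, samples left out and counts of similar genes added.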

Additional observations from a re-analysis of the deposited data

How the results depend on the processing

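Under 9 other settings and 6 fits that each left out 1 sample, no member's log2 fold change changed sign. In Male against Female, 149 of 150 member values kept their call. The exception was Gbp4, which was called lower (-0.05) with all 12 samples in 1 fit, so that 2 members were called lower. The median of the members was 0.59 in that fit and 0.53 with counts of similar genes added, a setting chosen after seeing the data. In KD against WT, 144 of 150 kept their call. Gbp7 lost it with upper-quartile scaling (-0.05), which left 1 member called lower, and without WT replicate 1 (-0.07). Gbp6 gained it with DESeq2 and limma-voom (both -0.06), with similar genes added (-0.12) and without KD replicate 1 (-0.08). Leaving out 1 sample gave 1 to 3 members called lower. The median was 0.25 with upper-quartile scaling and 0.20 with similar genes added. The cause was not tested.

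Samples with the same replicate number did not deviate together (correlations of -0.00113 to 0.0176 in Male and Female and of -0.0399 to 0.0206 in WT and KD). With replicate block, 8 members were called higher and 1 lower in Male against Female, 6 and 2 in KD against WT, and the medians were 0.61 and 0.22. Over all genes the block gave 9740 and 6688 calls.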
